A study of Saccharomyces cerevisiae S288C and Saccharomyces paradoxus NRRL Y-17217 and Saccharomyces mikatae IFO 1815 with 8 samples.

Results

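RNA-Seq read counts of S. bayanus and S. mikatae, relatives of the baker's yeast S. cerevisiae, were compared over the genes that could be measured in the same way in both species. Of 6599 annotated S. cerevisiae genes, 3959 were listed once in the annotation of each species, 3230 of these had a length of 0.9 to 1.1 times that of the S. cerevisiae gene, and 2999 also had at least 90% of their aligned reads at a single position in all 4 libraries. Rows of the ribosomal DNA were left out. These 2999 orthologs were the members of the comparison, and 2739 of them were measured by the same rule in the other 2 species of the series, S. paradoxus and S. cerevisiae. AAD14, with 90.1% unique reads, lay just inside the rule and the ribosomal protein gene RPS22A, with 89.9%, just outside it. MSA2 differed from the S. cerevisiae gene by 9.89% in length and was kept, while SMP3 differed by 10.1% and was not.

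The S. bayanus cells were strain MCYC623, which the organism field of the labels places under Saccharomyces uvarum CLIB 533, and the S. mikatae cells were strain IFO1815. Each species had 2 cultures, grown from separate isolates of 1 strain, and the study describes all strains as diploid and in exponential growth in glucose medium without added amino acids, whereas the labels name complete media. Replicate 1 of both species was prepared on 1 day and replicate 2 on another, so the number is called the day here. RNA was depleted of ribosomal RNA and sequenced with its strand kept, and the reads of each library were aligned to the draft genome of its own species. Species, strain and genome assembly therefore change together in this comparison and cannot be told apart, and in RNA from whole cultures fewer cells expressing a gene cannot be told apart from less RNA per cell.

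The species diverged within the Saccharomyces sensu stricto group, whose genomes have kept nearly the same genes in nearly the same order. Cells growing on glucose spend much of their transcription on ribosomes, repress genes for other sugars and for respiration through the glucose repression pathway, and hold general stress genes low. Sets of genes whose products work together, such as ribosome assembly factors or proteasome subunits, share short promoter motifs in yeast and tend to move together.

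Member genes held 1955379 and 2799473 uniquely aligned reads in the S. bayanus libraries, against 3992070 and 4301605 in the S. mikatae libraries. Ribosomal RNA that escaped depletion took 60.1 and 55.3% of the unique reads of annotated genes in S. bayanus, against 46.8 and 44.4% in S. mikatae, so the S. bayanus values rest on fewer reads. The median member had 212 and 226 reads in S. bayanus, against 307 and 349 in S. mikatae. A level is given as CPM, counts per 1000000 reads of member genes after scaling by the trimmed mean of M values (TMM), and it is not divided by gene length. Scaling factors were 1.25 and 0.964 in S. bayanus, against 0.908 and 0.913 in S. mikatae. Fold changes are log2 values of S. bayanus over S. mikatae, given with the standard error.

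The species differed in 845 of 2940 genes tested (28.7%) at an adjusted p under 0.05 in edgeR's quasi-likelihood test with the day as a block, with 429 higher in S. bayanus (14.6%) and 416 lower (14.1%). Before adjustment 1128 genes passed the same threshold. The median log2 fold change was 1.78 among the higher genes and -1.76 among the lower genes, and the smallest change called was 1.07 upwards and -1.06 downwards. A difference of more than 8-fold was called for 93 genes. Of the called genes 842 moved the same way on both days, and the 3 that did not were HSP30, CAT2 and IZH4. The ranges of the 2 species did not overlap for 1771 genes (60.2%): S. bayanus lay above S. mikatae in 861 (29.3%) and below it in 910 (31%). With 2 cultures a species, the p-values rest on the spread between these cultures only, pooled over genes of like count and not taken gene by gene.

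The number of calls depended on every library. Without S. bayanus replicate 1 there were 176 higher and 125 lower genes, without S. bayanus replicate 2 299 and 242, without S. mikatae replicate 1 176 and 219, and without S. mikatae replicate 2 133 and 136, all fitted with no block. With all 4 libraries and no block, 581 genes were called (19.8%), 282 upwards (9.59%) and 299 downwards (10.2%), and 576 of the 845 genes were called in both fits. Among the genes named below, AIM25, ALD5, ALD6, ATG5, CAT2, CLN1, HSP30, LCB1, MUP3, NOP56, ORM2, PUP2, RPA34, RPC11, RPS15, RRN10, TAT2 and VPS25 passed only with the block, with adjusted p-values of 0.052 for RPA34 to 0.25 for CAT2 without it in edgeR. The fit to 4 libraries has 1 residual degree of freedom and gave every gene the spread expected at its count, not a spread of its own. When the libraries of all 4 species were fitted together, with 3 residual degrees of freedom, 801 of 2686 genes were called (29.8%), and 715 of the 759 called genes tested there were called in the same direction. Scaling by total counts in place of TMM moved the median of all genes by 0.27 and gave 489 higher and 249 lower genes, 66.3% of the calls being higher, against 50.8% with TMM.

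Differences between the species were wider than those between cultures of 1 species. The standard deviation of the log2 ratio over 2940 genes was 1.56 for S. bayanus over S. mikatae on day 1 and 1.52 on day 2, whereas replicate 2 over replicate 1 gave 0.90 in S. bayanus and 0.88 in S. mikatae. More than a 2-fold difference was seen for 43.5% of genes between the species on day 1 and for 42.1% on day 2, and for 23.7 and 17.9% of genes between cultures of S. bayanus and of S. mikatae. Cultures of 1 species differ in the day as well, whereas the species were compared within a day. Across 2929 genes with reads in all 4 libraries the ratios of the 2 days correlated at 0.706, as a description over genes, which are not independent replicates.

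**Figure D1:**
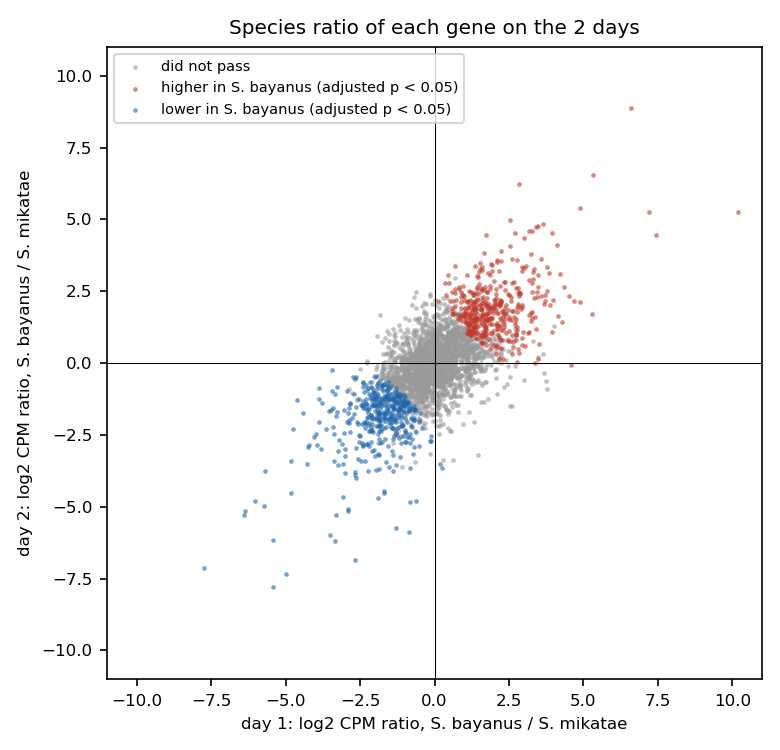
Log2 ratio of S. bayanus over S. mikatae for each gene on day 1 (horizontal axis) and day 2 (vertical axis), with genes called higher, lower or neither in separate colours. Of the 845 called genes 842 lie in the quadrants where both days moved the same way, and 3 do not.

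Of 58 lists of functionally related genes, ribosome assembly factors and mitochondrial ribosomal proteins were those with the most members higher in S. bayanus, and the proteasome that with the most members lower. The lists are described by the number of tested members called in each direction and by the median log2 fold change, beside the 14.6% higher and 14.1% lower over all genes tested, whose median the scaling sets near 0. Of 35 lists with at least 3 calls, 32 had over 1.5 times fewer calls when at least 1 of the libraries was left out. Taking S. bayanus replicates 1 and 2 and then S. mikatae replicates 1 and 2 out in turn, amino acid permeases had 3, 4, 2 and 3 higher members, against 6 with all libraries. Pheromone-induced genes had 2, 4, 3 and 1 higher members, against 4. Sphingolipid genes had 1, 4, 2 and 1 lower members, against 6, and cell cycle genes 0, 2, 1 and 1, against 6. The fits without 1 library had no block, so they differ from the full fit in the block as well as in the library. With all 4 libraries and no block, amino acid permeases had 4 higher members and pheromone-induced genes 4. Sphingolipid genes then had 2 lower members and cell cycle genes 3.

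**Figure D2:**
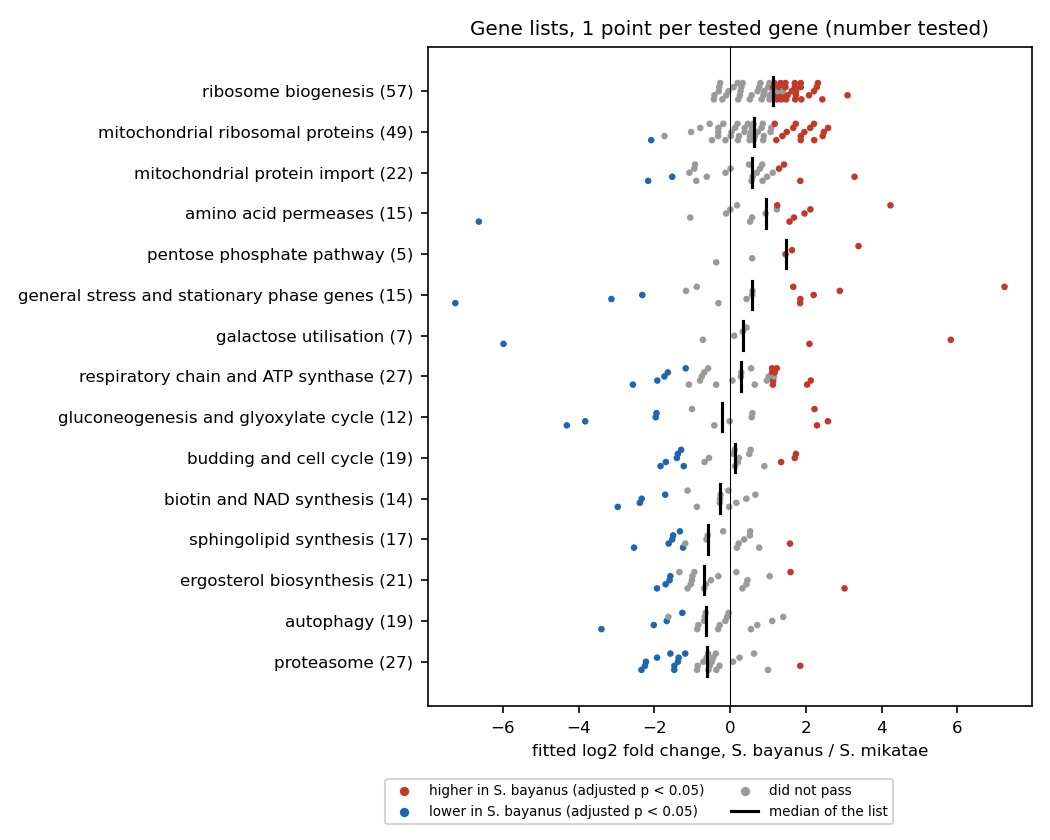
Fitted log2 fold change of each tested member of selected gene lists, a point per gene coloured by its call, with the median of each list marked. Ribosome biogenesis has 27 higher and 0 lower members of 57, and the proteasome 1 higher and 10 lower of 27.

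Ribosome biogenesis had higher genes and no lower ones in S. bayanus. They encode the assembly factors, helicases and processing enzymes that turn the ribosomal RNA precursor into subunits in the nucleolus. Of 57 members tested 27 rose and 0 fell, and 49 had a log2 fold change above 0. The ranges of the species did not overlap for 38 members, all higher in S. bayanus. Over all genes tested 29.3% had such ranges higher in S. bayanus and 31.0% lower. The median log2 fold change of the list was 1.13, with 1.31 on day 1 and 0.82 on day 2. FAL1, a helicase of the small subunit pathway, had 64.2 and 81.1 CPM in S. bayanus, against 10.5 and 6.62 CPM in S. mikatae (log2 fold change 3.10 ± 0.56, adjusted p = 1.2e-06). MAK5, a helicase of the large subunit pathway, had 212 and 137 CPM in S. bayanus, against 37.3 and 26.7 CPM in S. mikatae (log2 fold change 2.43 ± 0.46, adjusted p = 5e-06). For RLP7, which binds the precursor of the large subunit, the values were 76.1 and 74.5 CPM in S. bayanus, against 8.0 and 26.7 CPM in S. mikatae (log2 fold change 2.32 ± 0.54, adjusted p = 0.00026). The lowest S. bayanus culture lay above the highest S. mikatae culture for all 3. Other large subunit factors that rose were SSF1 by 2.29 ± 0.53, the RNA methyltransferase SPB1 by 2.21 ± 0.48, ERB1 by 1.88 ± 0.45 and BRX1 by 1.86 ± 0.44 on the log2 scale. NOP14 and NAN1, of the small subunit processome, rose by 2.08 ± 0.61 and 1.72 ± 0.50, and NOP56, a core protein of box C/D snoRNPs whose annotation overlaps another gene, by 1.17 ± 0.46 on the log2 scale. At the other end of the list, UTP15 and DBP3 had log2 fold changes of -0.43 and -0.42, which did not pass.

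Fewer members passed with fewer libraries, and the direction stayed the same. There were 17 higher and 0 lower members without the block, 23 higher of 51 with the libraries of all 4 species, and 30 higher when scaled by total counts. Without S. bayanus replicate 1 there were 8, without replicate 2 16, without S. mikatae replicate 1 5 and without replicate 2 9, with 0 lower in each, and the median ran from 0.86 to 1.45. The share of ribosomal RNA reads was also higher in both S. bayanus libraries, at 60.1 and 55.3%, against 46.8 and 44.4% in S. mikatae. What part depletion and ribosomal RNA content have in these values was not tested.

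**Figure D3:**
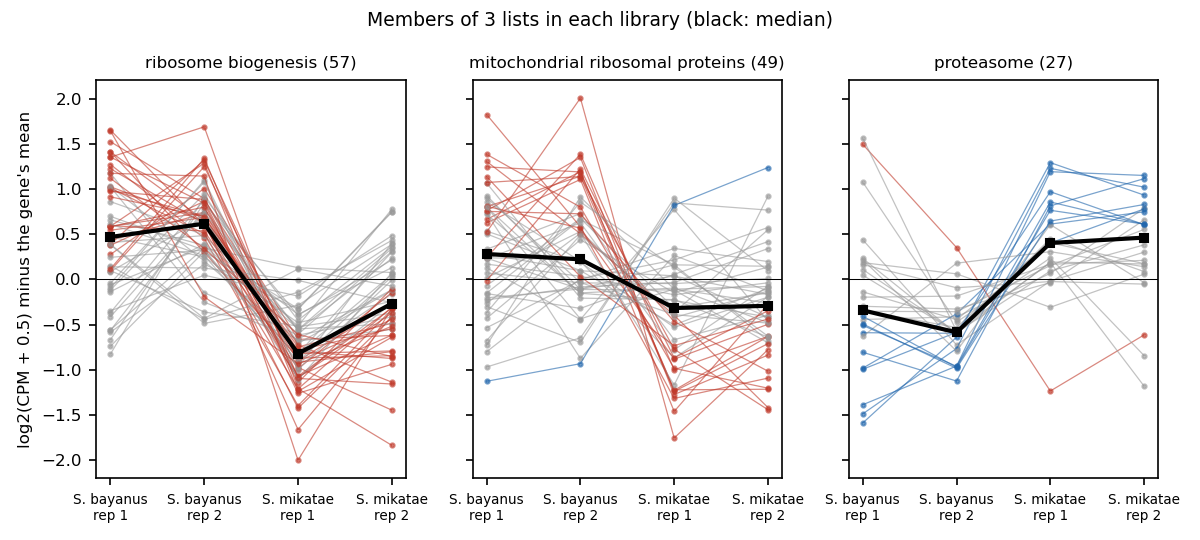
Log2 level of each tested member of 3 gene lists in the 4 libraries, relative to the member's own mean over the libraries, with the S. bayanus libraries left of those of S. mikatae and the median of the list marked. The ribosome biogenesis and mitochondrial ribosomal protein lists lie higher in both S. bayanus libraries and the proteasome list lower.

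The promoters of these genes in S. cerevisiae carry the pair of motifs known from ribosome assembly genes, the ribosomal RNA processing element RRPE (searched as AAAATTTT) and PAC (searched as GATGAG), on either strand within 250 bases before the start codon. Over all 6007 S. cerevisiae promoters of that length 8.66% held RRPE and 17.0% held PAC. Among the 57 tested members 43 held RRPE (75.4%), 49 held PAC (86.0%) and 37 held both (64.9%). Of the 37 with both, 16 were called higher in S. bayanus, and of the 20 others 11. With RRPE 18 of 43 were higher, and without it 9 of 14, so members without RRPE were not called less often. For PAC it was the other way, with 24 of 49 higher with it and 3 of 8 without it. Over all genes tested, list members included, 129 held both motifs, and 34 of them were higher (26.4%) and 3 lower (2.33%) in S. bayanus. The stretches around the motifs of 4 called members are shown from the RefSeq sequence of S. cerevisiae build R64, the promoter of S. bayanus or S. mikatae not being used here, with the motifs in capitals. In RLP7 a pair of PAC matches overlap. The stretches lie at chrIV:486623-486665 on the forward strand for FAL1, chrXIV:627222-627291 on the reverse strand for RLP7, chrIV:190663-190752 on the reverse strand for NOP14 and chrXIII:370595-370645 on the reverse strand for ERB1.
FAL1: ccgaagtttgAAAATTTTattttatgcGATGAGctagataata
RLP7: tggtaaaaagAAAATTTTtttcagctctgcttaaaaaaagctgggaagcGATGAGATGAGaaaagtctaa
NOP14: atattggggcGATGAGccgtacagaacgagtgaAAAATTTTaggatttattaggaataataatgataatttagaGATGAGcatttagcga
ERB1: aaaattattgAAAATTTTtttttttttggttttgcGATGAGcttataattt

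RNA polymerase I, which transcribes the ribosomal RNA precursor, and polymerase III were divided. Of 26 members tested 3 rose and 3 fell, with a median log2 fold change of -0.13. The 3 that rose were subunits of polymerase I alone, namely RPA49 (186 and 375 CPM in S. bayanus, against 51.6 and 58.3 CPM in S. mikatae, 2.27 ± 0.45), RPA34 (log2 fold change 1.90 ± 0.60) and RPA43 (1.70 ± 0.52). The 3 that fell were RRN10, a factor of polymerase I initiation (log2 fold change -2.11 ± 0.80), and TFC7 and RPC11 of the polymerase III machinery (-1.90 ± 0.50 and -1.70 ± 0.61). Cytosolic ribosomal proteins, most of which come from near-identical gene pairs, kept only 10 of 138 genes, and 0 rose and 2 fell, RPS15 (log2 fold change -1.38) and RPL38 (-1.28). RPL38 overlaps another annotated gene, so reads may be shared.

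Genes of the mitochondrial ribosome, which translates the few proteins encoded by mitochondrial DNA, had more calls higher than lower in S. bayanus, and most did not pass. Of 49 tested 15 rose and 1 fell, the median log2 fold change was 0.62, and 38 had a log2 fold change above 0. MRPL13 of the large subunit had 258 and 248 CPM in S. bayanus, against 46.4 and 46.6 CPM in S. mikatae (log2 fold change 2.44 ± 0.45, adjusted p = 1.9e-06). RSM23 of the small subunit had 223 and 233 CPM in S. bayanus, against 61.8 and 38.7 CPM in S. mikatae (log2 fold change 2.22 ± 0.45, adjusted p = 1.9e-05). The ranges of the species overlapped in neither gene, and in MRPL13 the cultures of each species lay close together. RTC6 rose by 2.59 ± 0.54, MRPL31 by 2.47 ± 0.61, RSM25 by 2.21 ± 0.52 and MRP1 by 2.11 ± 0.45, and RSM19 of the small subunit was the member that fell (log2 fold change -2.09 ± 0.52). Calls numbered 11 higher and 1 lower without the block, 14 and 2 of 46 with all 4 species, and 9, 9, 5 and 7 higher members without S. bayanus replicate 1, S. bayanus replicate 2, S. mikatae replicate 1 and S. mikatae replicate 2 in turn.

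Import and respiratory chain genes moved both ways. Among 22 import genes 4 rose and 2 fell. TOM5, a small subunit of the outer membrane translocase, had 127 and 222 CPM in S. bayanus, against 22.1 and 13.2 CPM in S. mikatae (log2 fold change 3.28 ± 0.50, adjusted p = 3.8e-09), and MGE1, the exchange factor of the import motor, rose by 1.85 ± 0.44. TIM23, the channel of the inner membrane, had 21.3 and 80.0 CPM in S. bayanus, against 215 and 168 CPM in S. mikatae (log2 fold change -2.17 ± 0.48), and TOM7, a partner of TOM5 in the translocase, fell (-1.53 ± 0.46). So TOM5 and TOM7, subunits of 1 complex, moved in opposite directions. Of 27 genes of the respiratory chain and ATP synthase 8 rose and 5 fell, with a median log2 fold change of 0.29. This balance depended on the fit, with 2 higher and 4 lower without the block, 3 and 4 with DESeq2, and 2 to 5 higher and 2 to 5 lower when 1 library was left out. The ATP synthase subunits ATP16 and ATP20 rose by 2.03 ± 0.50 and 2.13 ± 0.45, while its subunits ATP17 and TIM11 fell (log2 fold change -1.65 ± 0.50 and -1.92 ± 0.45). QCR8 of the cytochrome bc1 complex had 58.1 and 35.6 CPM in S. bayanus, against 248 and 295 CPM in S. mikatae (log2 fold change -2.57 ± 0.46, adjusted p = 7.7e-07), and COX5A of cytochrome oxidase fell (-1.74 ± 0.48). The TCA cycle had 3 higher and 0 lower of 17, among them LSC2 of succinyl-CoA ligase (log2 fold change 1.65).

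The proteasome had more lower than higher genes in S. bayanus. The proteasome degrades proteins tagged with ubiquitin, and its subunits are induced together by the activator RPN4. Of 27 members tested 10 fell and 1 rose. The S. bayanus range lay below that of S. mikatae for 17 members and above it for 2, beside 31.0% and 29.3% of all genes tested. The median log2 fold change was -0.62, with -0.51 on day 1 and -0.99 on day 2. PRE4, a beta subunit of the 20S core, had 142 and 192 CPM in S. bayanus, against 851 and 827 CPM in S. mikatae (log2 fold change -2.34 ± 0.51, adjusted p = 9.1e-05). RPT6, an ATPase of the regulatory particle, had 90.8 and 150.1 CPM in S. bayanus, against 598 and 518 CPM in S. mikatae (log2 fold change -2.25 ± 0.49, adjusted p = 7.7e-05). PUP1, the beta subunit with trypsin-like activity, had 145 and 279.7 CPM in S. bayanus, against 1067 and 832 CPM in S. mikatae (log2 fold change -2.22 ± 0.53, adjusted p = 0.00034). In all 3 both S. bayanus cultures lay far below both S. mikatae cultures. Core subunits that also fell were PRE7 (log2 fold change -1.93), PRE5 (-1.58), PUP3 (-1.36) and PUP2 (-1.19), and of the regulatory particle RPN12 (-1.48), the ubiquitin receptor RPN13 (-1.47) and the deubiquitinase RPN11 (-1.38). RPT2, another ATPase of the same ring as RPT6, was the member that rose, with 369.7 and 167 CPM in S. bayanus, against 55.5 and 85.5 CPM in S. mikatae (log2 fold change 1.85 ± 0.45, adjusted p = 0.00056). RPN4 itself had 483 and 109.7 CPM in S. bayanus, against 186 and 71.8 CPM in S. mikatae, a log2 fold change of 1.00 ± 0.44 that did not pass.

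The proteasome count depended on scaling and on single libraries. With total counts 5 members fell and 2 rose, and without the block 9 fell and 1 rose. Without S. bayanus replicate 1 there were 2 lower members, without replicate 2 6, without S. mikatae replicate 1 4 and without replicate 2 5. The proteasome-associated control element PACE, searched as GGTGGCAAA on either strand within 250 bases, was in 1.13% of all S. cerevisiae promoters and in 20 of the 27 tested members (74.1%). Among these 20, 7 fell and 1 rose, and among the 7 without it 3 fell. Over all 41 tested genes with PACE, proteasome members included, 12 were lower in S. bayanus (29.3%) and 3 higher. The stretches around PACE in 4 members that fell are given from the same RefSeq build, with the motif in capitals as read on the strand of the gene, at chrVI:249944-250002 on the reverse strand for PRE4, chrVII:411337-411395 on the reverse strand for RPT6, chrII:141135-141193 on the forward strand for PRE7 and chrVI:252383-252441 on the forward strand for RPN12. PRE4 and RPN12 hold it in the reverse orientation.
PRE4: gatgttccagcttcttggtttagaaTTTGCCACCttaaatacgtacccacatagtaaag
RPT6: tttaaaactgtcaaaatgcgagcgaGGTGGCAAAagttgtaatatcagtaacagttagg
PRE7: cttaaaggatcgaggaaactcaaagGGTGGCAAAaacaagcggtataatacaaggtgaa
RPN12: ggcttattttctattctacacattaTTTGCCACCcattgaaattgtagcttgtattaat

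Galactose genes were called in opposite directions within 1 pathway. GAL7 and GAL10 encode enzymes that convert galactose for glycolysis, and GAL80 encodes the repressor that binds the activator Gal4 when galactose is absent. GAL7 had 99.4 and 96.0 CPM in S. bayanus, against 2.48 and 1.02 CPM in S. mikatae (log2 fold change 5.83 ± 0.65, adjusted p = 1.7e-16). GAL10 had 69.5 and 53.7 CPM in S. bayanus, against 15.5 and 13.2 CPM in S. mikatae (log2 fold change 2.09 ± 0.54, adjusted p = 0.00099). GAL80 had 2.05 and 0.741 CPM in S. bayanus, against 65.4 and 120.4 CPM in S. mikatae (log2 fold change -5.99 ± 0.70, adjusted p = 2e-15). The species overlapped in none of the 3, and all 3 genes moved the same way on both days. The other 4 members tested did not pass: the kinase GAL1 had 50.7 and 46.3 CPM in S. bayanus, against 34.2 and 59.0 CPM in S. mikatae (log2 fold change 0.10), the sensor GAL3 a log2 fold change of 0.43, the activator GAL4 0.33 and the phosphoglucomutase PGM1 -0.72. GAL1 and GAL10 are divergent neighbours, and only GAL10 was called. GAL7 and GAL80 passed the filter on low counts only through the species where each was high. With at least 10 counts asked of all 4 libraries 5 members were tested, with 1 higher and 0 lower. The counts of the list are therefore no support for opposite directions.

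A match to the Gal4 site, CGG and CCG spaced by 11 bases (CGGNNNNNNNNNNNCCG), was found within 250 bases in 1.17% of S. cerevisiae promoters, on either strand, and in 3 of the 7 tested galactose genes, namely GAL7, GAL10 and GAL80. The GAL10 matches lie in the region between GAL10 and GAL1, which both genes share, so the window and not the region separates GAL10 from GAL1 here. The RefSeq R64 sequence around the matches is shown for these genes with the matches in capitals, 3 of them in GAL10 when 300 bases were read, to place the gene that fell beside those that rose. The stretches are chrII:275663-275759 on the reverse strand for GAL7, chrII:278528-278652 on the reverse strand for GAL10 and chrXIII:171382-171478 on the forward strand for GAL80.
GAL7: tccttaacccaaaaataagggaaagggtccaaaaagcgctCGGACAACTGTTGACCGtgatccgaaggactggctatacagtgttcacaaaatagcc
GAL10: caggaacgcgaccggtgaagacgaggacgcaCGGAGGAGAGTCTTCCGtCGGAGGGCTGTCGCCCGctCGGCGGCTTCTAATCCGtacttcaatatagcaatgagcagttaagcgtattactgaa
GAL80: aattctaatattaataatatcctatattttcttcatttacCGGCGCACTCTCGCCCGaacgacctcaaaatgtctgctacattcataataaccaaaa

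**Figure D4:**
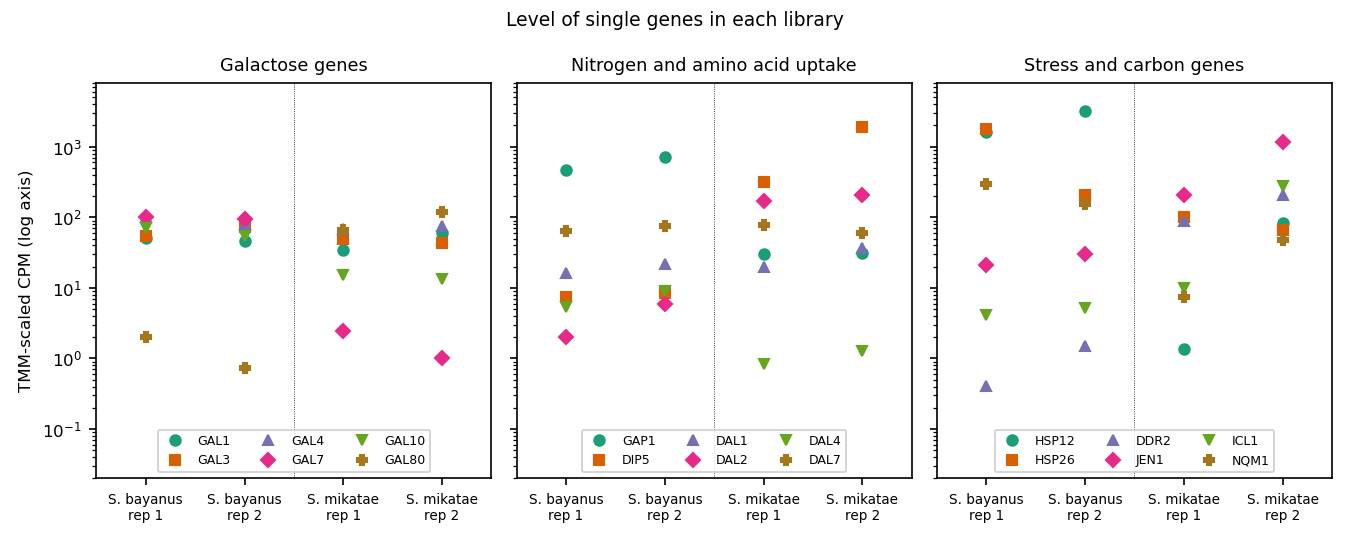
CPM on a log axis of selected genes in each library, S. bayanus left of S. mikatae, 1 point per culture. The species do not overlap for GAL7, GAL80, GAP1, DIP5 or HSP12, and the S. mikatae cultures of HSP12 lie far apart.

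Amino acid transport rose more often than it fell. Of 15 permeases and regulators tested 6 rose and 1 fell, with a median log2 fold change of 0.94. GAP1, the general amino acid permease, had 461 and 723 CPM in S. bayanus, against 30.1 and 31.3 CPM in S. mikatae (log2 fold change 4.23 ± 0.52, adjusted p = 9.2e-14). DIP5, a permease for glutamate and aspartate, had 7.36 and 8.52 CPM in S. bayanus, against 318 and 1878 CPM in S. mikatae (-6.64 ± 0.66, adjusted p = 2.1e-20), the lowest log2 fold change of the list. The S. mikatae cultures of DIP5 differed from each other, and both lay far above the S. bayanus cultures. The transcription factor STP1 and the protease SSY5, which act in the sensor pathway for external amino acids, rose by 2.12 ± 0.45 and 1.68 ± 0.44, as did the permeases AGP2 (log2 fold change 1.57), MUP3 (1.24) and TAT2 (1.96). Of 15 genes of nitrogen catabolite repression, the control that shuts off poor nitrogen sources, 3 rose and 1 fell. DAL2, allantoicase of allantoin breakdown, had 2.05 and 5.93 CPM in S. bayanus, against 171 and 209 CPM in S. mikatae (log2 fold change -5.64 ± 0.58, adjusted p = 1.4e-19), while DAL4, the allantoin permease in the same gene cluster, had 5.32 and 8.89 CPM in S. bayanus, against 0.828 and 1.27 CPM in S. mikatae (2.71 ± 1.06). DAL1 and DAL7 of that cluster had log2 fold changes of -0.52 and 0.03. The allantoin cluster thus held a higher gene, a lower gene and 2 that did not pass. DAL2 and DAL4 passed the filter on low counts only through the species where each was high. With at least 10 counts asked of all 4 libraries 13 genes of nitrogen catabolite repression were tested, with 2 higher and 0 lower.

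Genes of nonfermentable carbon differed in both directions and varied between the S. mikatae cultures. Of 12 genes of gluconeogenesis and the glyoxylate cycle 3 rose and 4 fell. The list turned with single libraries, with 0 higher and 4 lower and a median log2 fold change of -0.77 without S. mikatae replicate 1, and 2 higher, 1 lower and a median of 1.04 without S. mikatae replicate 2. Leaving out S. bayanus replicate 1 or S. bayanus replicate 2 gave 1 higher and 2 lower each time. JEN1, the lactate permease, had 21.3 and 30.0 CPM in S. bayanus, against 210.0 and 1177 CPM in S. mikatae (log2 fold change -4.31 ± 0.55, adjusted p = 1.5e-12). ICL1, isocitrate lyase of the glyoxylate cycle, had 4.09 and 5.19 CPM in S. bayanus, against 9.93 and 278 CPM in S. mikatae (log2 fold change -3.83 ± 0.65), with a large gap between the S. mikatae cultures. PCK1, which makes phosphoenolpyruvate for gluconeogenesis, fell (log2 fold change -1.95 ± 0.55), as did the activator SIP4 (-1.97 ± 0.57). The mitochondrial ICL2, of the methylcitrate cycle, rose by 2.29 ± 0.75 on the log2 scale. MAE1, the malic enzyme, had a log2 fold change of 2.58 ± 0.53, and its annotation overlaps another gene. All 3 pentose phosphate genes called of 5 tested rose, with the transaldolase homolog NQM1 at 293 and 156 CPM in S. bayanus, against 7.45 and 47.8 CPM in S. mikatae (log2 fold change 3.39 ± 0.52), RPE1 at 1.63 ± 0.44 and RKI1 at 1.46 ± 0.50.

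Glycolysis and fermentation genes were divided, with 3 of 15 higher and 3 lower. The activators of glycolytic genes GCR2 and TYE7 rose by 1.85 ± 0.52 and 1.77 ± 0.44 on the log2 scale. ADH5, an alcohol dehydrogenase, fell (log2 fold change -2.97 ± 0.47), as did the acetaldehyde dehydrogenases ALD6 and ALD4 (-1.60 ± 0.59 and -1.94 ± 0.52). ALD5, the mitochondrial partner of ALD4, had 159 and 205 CPM in S. bayanus, against 65.1 and 99.5 CPM in S. mikatae (log2 fold change 1.16 ± 0.43, adjusted p = 0.03). For ALD4 the values were 171 and 356 CPM in S. bayanus, against 904 and 997 CPM in S. mikatae, so the pair moved in opposite directions. Among 27 pairs of related genes with both members tested, 2 had both called, 1 of them in opposite directions, 9 had 1 called and 16 neither.

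Stress genes gave some of the widest differences in either direction. HSP12, a membrane-protecting protein of the general stress response, had 1600.0 and 3221 CPM in S. bayanus, against 1.38 and 83.5 CPM in S. mikatae (log2 fold change 7.25 ± 0.76, adjusted p = 1.8e-18). DDR2, another gene induced by many stresses, had 0.409 and 1.48 CPM in S. bayanus, against 88.6 and 208 CPM in S. mikatae (log2 fold change -7.26 ± 0.70, adjusted p = 8.3e-22). HSP26, a small chaperone, had 1782 and 206 CPM in S. bayanus, against 102 and 65.9 CPM in S. mikatae (log2 fold change 2.89 ± 0.56). HSP12 was high in both S. bayanus cultures and DDR2 in both S. mikatae cultures, and neither pair of ranges overlapped. Of 15 general stress and stationary phase genes tested 6 rose and 3 fell, with a median log2 fold change of 0.58. With at least 10 counts asked of all 4 libraries 12 were tested, with 5 higher and 1 lower. DDR2 passed the filter on low counts only through the S. mikatae libraries. OM45 and GAD1 rose by 2.20 ± 0.49 and 1.85 ± 0.52, and the secreted protein YGP1 and the protease inhibitor PAI3 fell (log2 fold change -2.32 ± 0.73 and -3.14 ± 0.72). The summed level of the list was 9598 and 9348 CPM in S. bayanus, against 9379 and 18198 CPM in S. mikatae, so only S. mikatae replicate 2 stood apart. Heat shock proteins and chaperones had 4 higher and 1 lower of 25, led by their activator HSF1 with 249 and 112 CPM in S. bayanus, against 17.9 and 10.9 CPM in S. mikatae (log2 fold change 3.58 ± 0.50). The heat shock list had 1 higher and 0 lower without the block, and 1, 3, 3 and 1 higher without S. bayanus replicate 1, S. bayanus replicate 2, S. mikatae replicate 1 and S. mikatae replicate 2 in turn, beside 14.6% higher over all genes. The HSF1 annotation overlaps another gene in both species. PDI1, the disulfide isomerase of the endoplasmic reticulum, had 731 and 3003 CPM in S. bayanus, against 19731 and 14601 CPM in S. mikatae (log2 fold change -3.52 ± 0.88, adjusted p = 0.00072), and of 15 chaperones of that compartment 2 rose and 2 fell.

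Sphingolipid genes were more often lower than higher in S. bayanus, and ergosterol genes had calls in both directions. Of 17 sphingolipid genes 6 fell and 1 rose, with a median log2 fold change of -0.59. SUR1, which adds mannose to inositolphosphoceramide, had 342 and 297 CPM in S. bayanus, against 1279.6 and 2681 CPM in S. mikatae (log2 fold change -2.54 ± 0.58, adjusted p = 0.0002). IPT1, which completes the same head group, fell (log2 fold change -1.63 ± 0.54), as did LCB1 of the first step of the pathway (-1.53 ± 0.48) and its regulator ORM2 (-1.51 ± 0.51). The ceramide synthase LAC1 rose by 1.58 ± 0.47 on the log2 scale. Of 21 ergosterol genes 4 fell and 2 rose, with a median log2 fold change of -0.69. The lower share was 4 of 21, beside 14.1% over all genes, and there were 0, 4, 3 and 0 lower members without S. bayanus replicate 1, S. bayanus replicate 2, S. mikatae replicate 1 and S. mikatae replicate 2 in turn. NCP1, the reductase that serves the pathway, fell (log2 fold change -1.71 ± 0.51), as did the HMG-CoA reductase HMG2 (-1.60 ± 0.51). By contrast ERG28, a scaffold of the demethylation enzymes, had 667 and 1245 CPM in S. bayanus, against 74.8 and 168 CPM in S. mikatae (log2 fold change 3.02 ± 0.53, adjusted p = 5.3e-07). ARE1 and ERG27, which both overlap other annotated genes, had log2 fold changes of -1.93 and -1.58. FAA1, which activates imported fatty acids, was the highest of 23 fatty acid and phospholipid genes at 2.64 ± 0.57, and OPI1, the repressor of phospholipid genes, was the only one of them that fell (log2 fold change -1.60 ± 0.51).

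Biotin and NAD synthesis had lower genes and no higher ones, since 0 of 14 rose and 4 fell. BIO4 and BIO2, of the last steps to biotin, both fell. BIO4 had 207 and 269.7 CPM in S. bayanus, against 2610.2 and 1316 CPM in S. mikatae (log2 fold change -2.97 ± 0.59, adjusted p = 1.2e-05). BIO2 had 211 and 727 CPM in S. bayanus, against 3139 and 1341 CPM in S. mikatae (log2 fold change -2.39 ± 0.64). BNA4 and BNA1, of NAD synthesis from tryptophan, fell (log2 fold change -2.34 ± 0.49 and -1.72 ± 0.46). THI4, of thiamine synthesis, rose, with 95.7 and 129 CPM in S. bayanus, against 0.552 and 5.85 CPM in S. mikatae (log2 fold change 5.41 ± 0.62, adjusted p = 9.3e-16). Among metal genes, ZRT1, the zinc permease of high affinity, had 3605 and 3188 CPM in S. bayanus, against 511 and 592 CPM in S. mikatae (log2 fold change 2.62 ± 0.62), and 2 of 14 zinc genes rose and 3 fell. The iron regulon had 1 higher and 3 lower of 15, with the siderophore transporter ENB1 at -2.55 ± 0.49 and the mRNA-degrading protein CTH1 at -2.64 ± 0.46 on the log2 scale. PHO84, the phosphate permease of high affinity, had 1016 and 2613 CPM in S. bayanus, against 43.9 and 522 CPM in S. mikatae (log2 fold change 3.41 ± 0.61), and PHO86, which PHO84 needs to leave the endoplasmic reticulum, fell (-2.26 ± 0.47).

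Of 19 budding and cell cycle genes tested 3 rose and 6 fell, without a common direction of the list. The median log2 fold change was 0.12, with -0.43 on day 1 and 0.45 on day 2. Values lay above 0 for 11 genes and below 0 for 8. When 1 library was left out the median ran from -0.35 to 0.45. The G1 cyclins were among those that fell and a mitotic cyclin among those that rose. The G1 cyclins CLN2 and CLN3 had log2 fold changes of -1.70 ± 0.45 and -1.84 ± 0.44, and CLN1 of -1.23 ± 0.44. CLN2 had 99.4 and 143 CPM in S. bayanus, against 448 and 337 CPM in S. mikatae, with both S. bayanus cultures below both of S. mikatae. The mitotic cyclin CLB2 had 298 and 111 CPM in S. bayanus, against 66.2 and 45.0 CPM in S. mikatae (log2 fold change 1.74 ± 0.45), and BUD4, which marks the bud site, rose by 1.71 ± 0.45. DNA replication and nucleotide reduction had 1 higher and 4 lower of 20, with the reductase subunit RNR2 at 772 and 1076 CPM in S. bayanus, against 4063 and 3197 CPM in S. mikatae (log2 fold change -1.98 ± 0.62) and the helicase subunit MCM4 at -1.36 ± 0.45. CDC6, which loads that helicase and overlaps another annotated gene, had a log2 fold change of -2.99 ± 0.50. Autophagy, which delivers cell contents to the vacuole, had 0 higher and 4 lower of 19, and its median log2 fold change was 0.02 on day 1 and -0.93 on day 2. ATG19, a receptor for cargo of the vacuole, had 30.7 and 38.9 CPM in S. bayanus, against 477 and 281 CPM in S. mikatae (log2 fold change -3.40 ± 0.48). The others that fell were ATG22, ATG27 and ATG5 (log2 fold change -2.02 ± 0.48, -1.68 ± 0.44 and -1.26 ± 0.48).

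Markers of haploid, mating and sporulating cells were checked because the strains are described as vegetative diploids. The summed level of the haploid-specific genes was 243 and 173 CPM in S. bayanus, against 177 and 220 CPM in S. mikatae, and of 8 tested 0 rose and 1 fell. That gene was HO, the mating type endonuclease, which overlaps another annotated gene. HO had 0 and 1 reads in S. bayanus, against 17 and 18 in S. mikatae, and passed the filter on low counts only through S. mikatae. With at least 10 counts asked of all 4 libraries 5 haploid-specific genes were tested and 0 were called. Pheromone-induced genes summed to 283 and 174 CPM in S. bayanus, against 55.2 and 55.0 CPM in S. mikatae, and 4 of 8 rose and 0 fell. PRM5, FUS2 and CIK1 passed the filter on low counts only through the S. bayanus libraries, and with at least 10 counts asked of all 4 libraries 2 members were tested and 1 was higher, so the count is no support for a direction. Among the members called, PRM5, a membrane protein that the cell integrity pathway also induces, had 159.9 and 119.7 CPM in S. bayanus, against 1.66 and 0.255 CPM in S. mikatae (log2 fold change 7.25 ± 0.68, adjusted p = 6.4e-23). FUS2 and FUS1, of cell fusion, rose by 3.53 ± 0.86 and 2.40 ± 0.75, and the kinesin partner CIK1 by 2.84 ± 0.80 on the log2 scale. Most of the summed level in S. bayanus came from PRM5. Of 16 meiosis and sporulation members 6 passed the filter on low counts, and 2 rose, both of which passed only through the S. bayanus libraries. With at least 10 counts asked of all 4 libraries 1 member was tested and 0 were called. SPS1, a kinase of spore formation, had 29.9 and 19.3 CPM in S. bayanus, against 4.14 and 0.255 CPM in S. mikatae (log2 fold change 3.83 ± 0.81), and SPS4 rose by 3.04 ± 0.65. Meiosis and sporulation members summed to 218 and 87.1 CPM in S. bayanus, against 75.1 and 54.5 CPM in S. mikatae. The a-specific genes summed to 40.1 and 34.8 CPM in S. bayanus, against 77.3 and 125 CPM in S. mikatae. Of these ASG7 fell (log2 fold change -3.89 ± 0.81). With at least 10 counts asked of all 4 libraries 1 a-specific gene was tested and 0 were called. The alpha-specific genes, of which 0 of 2 tested passed, summed to 16.0 and 25.6 CPM in S. bayanus, against 9.11 and 13.5 CPM in S. mikatae. The part of other cell types in the results was not tested.

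The remaining lists are given mainly by their counts. Sulfur and methionine metabolism had 4 higher and 1 lower of 14, among them the activator MET4 (log2 fold change 3.05 ± 0.53) and MET5 of sulfite reductase (1.91 ± 0.64). Peroxisomal genes had 5 higher and 4 lower of 20, with FOX2 of beta-oxidation at 1.79 ± 0.51 on the log2 scale. Purine synthesis had 2 higher and 0 lower of 11, with ADE1 at 331 and 703 CPM in S. bayanus, against 111 and 74.6 CPM in S. mikatae (log2 fold change 2.41 ± 0.49), and pyrimidine synthesis 1 higher and 3 lower of 9, with the salvage enzyme FUR1 at 2.85 ± 0.49 and the CTP synthase URA8 at -1.98 ± 0.52. Aromatic, arginine and histidine genes had 0 higher and 1 lower each, TRP3 (log2 fold change -1.87 ± 0.48), ARG4 (-1.52 ± 0.53) and HIS5 (-2.11 ± 0.49). Lysine genes had 1 higher and 0 lower, LYS12 (log2 fold change 2.11 ± 0.51), and branched-chain genes 0 of 6 in either direction. For serine, glycine and threonine, 1 of 13 rose and 3 fell. None of 10 aminoacyl-tRNA synthetases passed, of which GUS1, for glutamate, had 1361 and 1845 CPM in S. bayanus, against 1754 and 1839 CPM in S. mikatae. Translation factors had 3 higher and 2 lower of 19, with TIF11, the initiation factor 1A, at 2.64 ± 0.50 on the log2 scale. There were 1 higher and 2 lower genes in each of the oxidative stress (21 tested), nuclear pore (21), cell wall (13) and trehalose and glycogen (10) lists. There was 1 call in each direction among phosphate (11), heme (6), hexose transport (6), multidrug resistance (11) and fatty acid and phospholipid genes (23). Only 1 higher gene was found in the vacuolar ATPase (11), silencing (7), nucleotide transporter (6) and glutamate and proline (4) lists, and only 1 lower gene among copper genes (5), while the 1 histone tested did not pass.

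The genes farthest apart came from many functions. Upwards they included NKP1, a kinetochore protein, with 123 and 38.5 CPM in S. bayanus, against 0.828 and 1.02 CPM in S. mikatae (log2 fold change 6.20 ± 0.72). PEX9, an import receptor of peroxisomes, had 36.4 and 31.1 CPM in S. bayanus, against 0 and 1.02 CPM in S. mikatae (log2 fold change 5.97 ± 0.90), and YMR262W, an uncharacterised gene, had 178 and 206 CPM in S. bayanus, against 6.07 and 4.84 CPM in S. mikatae (5.13 ± 0.54). GRX8, a glutaredoxin, had 154 and 197 CPM in S. bayanus, against 12.4 and 6.87 CPM in S. mikatae (log2 fold change 4.22 ± 0.52), and QDR2, a multidrug transporter, 89.6 and 266 CPM in S. bayanus, against 9.93 and 10.9 CPM in S. mikatae (3.90 ± 0.52). Each of these was higher in both S. bayanus cultures than in both of S. mikatae. NKP1 and PEX9 passed the filter on low counts only through the S. bayanus libraries, so their low S. mikatae levels are no added support. Downwards, AGX1, which makes glycine from glyoxylate, had 59.3 and 92.3 CPM in S. bayanus, against 5032 and 3586 CPM in S. mikatae (log2 fold change -5.84 ± 0.73, adjusted p = 3.7e-13). DAK2, a dihydroxyacetone kinase, had 87.5 and 50.8 CPM in S. bayanus, against 563 and 5839 CPM in S. mikatae (log2 fold change -4.76 ± 0.74), its S. mikatae cultures differing widely. YKR075C, which is regulated by glucose, had 8.18 and 13.3 CPM in S. bayanus, against 229 and 306 CPM in S. mikatae (log2 fold change -4.65 ± 0.51), PIR5, a cell wall protein, 13.9 and 3.33 CPM in S. bayanus, against 141 and 242 CPM in S. mikatae (-4.59 ± 0.55), and YMR027W, a phosphatase of damaged metabolites, 236 and 343 CPM in S. bayanus, against 15611 and 9487 CPM in S. mikatae (-5.42 ± 0.86). ECM13 had 0 and 1 reads in S. bayanus, against 194 and 516 in S. mikatae. ATR2, a boron transporter homolog, had 1 and 1 reads in S. bayanus, against 78 and 46 in S. mikatae. Both passed the filter on low counts only through the S. mikatae libraries.

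A few genes had reads in 1 species only, and passed the filter on low counts only through that species. TMA7, associated with ribosomes, had 103 and 145 reads in S. bayanus, against 0 and 0 in S. mikatae and was at least 121-fold higher in S. bayanus, with a floor of 3 reads over the S. mikatae libraries, and BIL2 at least 16.6-fold higher, with 15 and 19 reads in S. bayanus, against 0 and 0 in S. mikatae. SPS22, of the spore wall, had 0 and 0 reads in S. bayanus, against 13 and 12 in S. mikatae, and was at least 5.69-fold lower in S. bayanus. YOL131W, uncharacterised, had 0 and 0 reads in S. bayanus, against 15 and 14 in S. mikatae, and was at least 6.6-fold lower. For TMA7, edgeR gave an adjusted p of 7e-16 and DESeq2 one of 0.051. Whether reads of these genes can be aligned in the draft genome without counts was not tested.

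The other 2 species were used to place the differences. Of 759 called genes measured in all 4 species, 277 had only the S. bayanus cultures outside the range of the 4 S. paradoxus and S. cerevisiae cultures, 208 only those of S. mikatae, 109 both and 165 neither. Among the 392 higher genes the counts were 152, 95, 50 and 95, and among the 367 lower genes 125, 113, 59 and 70. Ribosome biogenesis had median log2 values of 0.82 for S. bayanus over S. paradoxus and 0.77 over S. cerevisiae, with -0.23 and -0.29 for S. mikatae over the same species. Mitochondrial ribosomal proteins gave 1.13 and 1.00 for S. bayanus and 0.34 and -0.13 for S. mikatae. In these lists S. bayanus stood farther from the other species than S. mikatae did. The proteasome gave -0.28 and -1.03 for S. bayanus and 0.19 and -0.22 for S. mikatae, so its difference depended on which species it was set against. These values share the libraries of S. bayanus and S. mikatae and are given side by side, with no test.

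Single genes fell on either side when all 8 libraries were scaled together. MRPL13 had 247 and 236 CPM in S. bayanus, 43.7 and 44.1 CPM in S. mikatae, 36.8 and 45.9 CPM in S. paradoxus and 77.1 and 97.1 CPM in S. cerevisiae, so S. bayanus stood apart. GAL7 had 95.2 and 91.1 CPM in S. bayanus, 2.34 and 0.965 CPM in S. mikatae, 3.52 and 1.56 CPM in S. paradoxus and 2.04 and 11.2 CPM in S. cerevisiae, again with S. bayanus apart. GAL80 was lower in S. bayanus than in each of the other cultures, with 1.96 and 0.703 CPM in S. bayanus, 61.6 and 114 CPM in S. mikatae, 49.7 and 53.1 CPM in S. paradoxus and 275 and 439 CPM in S. cerevisiae. For PRM5 it was S. mikatae that stood apart, with 153 and 114 CPM in S. bayanus, 1.56 and 0.241 CPM in S. mikatae, 111 and 114 CPM in S. paradoxus and 269.6 and 100.3 CPM in S. cerevisiae. GAP1 was lower in S. mikatae and S. paradoxus than in S. bayanus and highest in S. cerevisiae, with 442 and 686 CPM in S. bayanus, 28.3 and 29.7 CPM in S. mikatae, 27.4 and 29.7 CPM in S. paradoxus and 4831 and 1704 CPM in S. cerevisiae. HSP12 was highest in S. bayanus, with 1533 and 3058 CPM in S. bayanus, 1.3 and 79.1 CPM in S. mikatae, 5.48 and 4.68 CPM in S. paradoxus and 229 and 377 CPM in S. cerevisiae.

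Shorter genes were called more often. Among genes with a coding length in S. cerevisiae of up to 500 bases 38.6% of 280 were called, followed by 31.2% of 836, 28.3% of 1246 and 24.0% of 400 in rising classes of length, and by 15.7% of 178 genes over 3000 bases. The share of lower genes changed most, with 22.1% in the shortest class and 5.06% in the longest, against 16.4 and 10.7% for higher genes. Calls also changed with the mean count over the 4 libraries. In the lowest of 5 equal classes 17.9% were higher and 6.63% lower in S. bayanus, and in the highest class 7.31% and 15.0%. The S. mikatae libraries held more reads and weigh more in this mean, so the class of a gene is not independent of its direction. These shares therefore do not show how direction depends on level. Of 88 genes within 30 kb of a chromosome end in S. cerevisiae, 13.6% were higher and 26.1% lower. Genes with TATAAA within 250 bases before the start codon, found in 43.5% of all promoters, were called in 30.0% of 1252 cases, against 27.8% of 1687 genes without it. Genes that overlap another annotated gene were called in 32.5% of 169 cases, against 28.5% of 2771 others. These shares are descriptions, and length, count and distance were not separated from each other.

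**Figure D5:**
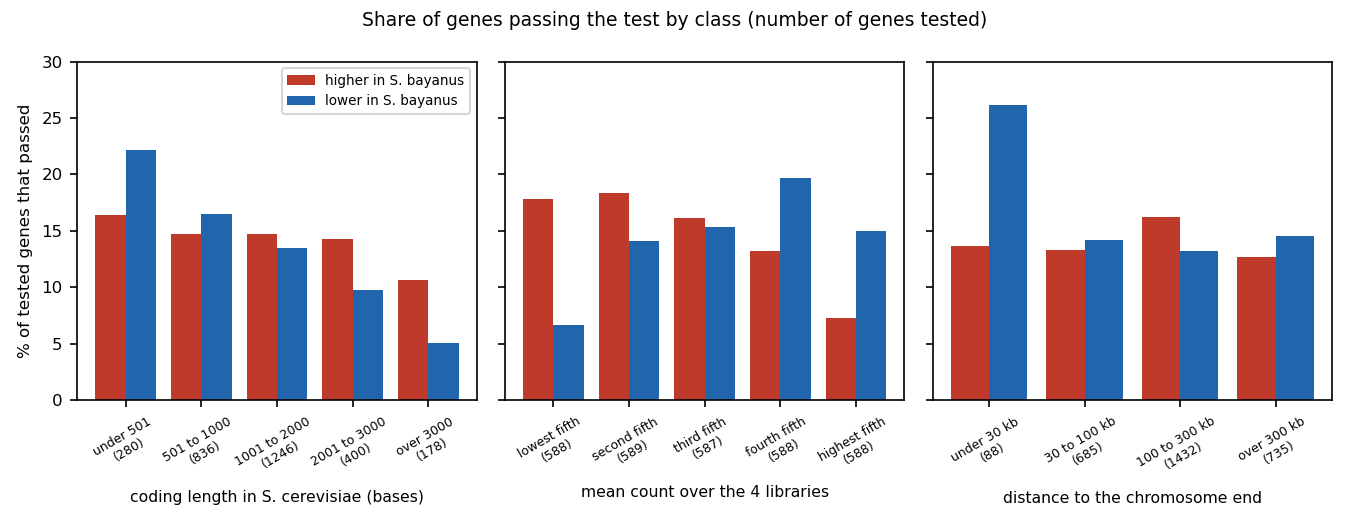
Percentage of tested genes called higher or lower in S. bayanus by coding length, mean count and distance to the chromosome end. The called share is 38.6% in the shortest class of length and 15.7% in the longest.

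Neighbouring genes were compared for runs of calls. Of 2924 pairs of neighbouring tested genes in S. cerevisiae order, 245 had both called (8.38%), and 131 of these (53.5%) moved in the same direction. Over all genes tested 28.7% were called, 14.6% higher and 14.1% lower. Whether such pairs or runs were more frequent than these shares give was not tested. There were 5 runs of 4 or 5 called genes with 1 direction. The longest was the lower run of YUH1, AIM25, VPS25, URA8 and LIH1 on chromosome X, from 615565 to 628315 in the sacCer2 build. Another held SPS4, SFG1, COT1 and FAA1 on chromosome XV, from 901855 to 911442, all higher in S. bayanus.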

How the data were processed

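RNA of 2 S. bayanus and 2 S. mikatae cultures was measured by strand-specific SOLiD sequencing. The values deposited by the authors are raw counts of reads per annotated gene, uniquely aligned and in all, made with MOSAIK against the genome of each species and not normalized; the S. cerevisiae build is sacCer2 per the labels, whereas symbols and promoters came from RefSeq R64, matched by locus name. All columns of per-sample values used were matched to a sample by name, leaving 0 unmatched. The members and gene lists were chosen with earlier results of these data known.

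Genes with at least 10 counts in at least 2 of 4 libraries were tested (2940, with 59 left out) in edgeR 4.0.16 (R 4.3.3) with TMM scaling, day and species as terms, and Benjamini-Hochberg adjustment over all genes tested. The day is a block because the study states that the replicate number marks the day of preparation. Deviations of same-numbered cultures correlated from 0.172, between S. bayanus and S. mikatae, to 0.495 over 2686 genes in all 6 pairs of species. With 1 residual degree of freedom edgeR pooled the spread over genes fully (common coefficient of variation 0.336). Per-day ratios were scaled by the median ratio with 0.01 in place of a count of 0. DESeq2 1.42.0, other scalings, filters, gene sets and a rebuilt chi-square of the study were alternatives.

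Named genes are the 15 largest and 15 smallest called fold changes with 1 direction on both days, the 10 smallest p in each direction, at most 6 called members per list (or its 2 most abundant members where fewer than 2 passed), genes with 0 reads in 1 species, and pairs called in opposite directions; further list members stand as values, chosen after their values were seen. Precision is set by depth, and 3 counts is the floor used for a count of 0, which covers counting error only. A result for 1 named gene is not reported here.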

Additional observations from a re-analysis of the deposited data

Results flagged for a closer look

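HSP30, a heat shock protein of the plasma membrane, had a fitted log2 fold change of -1.69, with log2 ratios of 0.27 on day 1 and -3.65 on day 2, from 492 and 119 CPM in S. bayanus, against 409.8 and 1498 CPM in S. mikatae. CAT2, carnitine acetyltransferase, had a fitted log2 fold change of 2.23, with ratios of 4.60 on day 1 and -0.08 on day 2, from 768 and 451 CPM in S. bayanus, against 31.7 and 475 CPM in S. mikatae. IZH4, a membrane protein of zinc metabolism, had a fitted log2 fold change of -1.69, with ratios of 0.17 on day 1 and -3.52 on day 2, from 32.3 and 20.7 CPM in S. bayanus, against 28.7 and 237 CPM in S. mikatae. In these genes 1 day moved up and the other down, the cultures of the species overlapped, and the difference between days was not tested. HSP30 and IZH4 were high in S. mikatae replicate 2, and CAT2 was low in S. mikatae replicate 1. HSP30 and CAT2 passed only with the day as a block, with adjusted p-values of 0.082 and 0.25 without it in edgeR.

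Outside the member genes, the ribosomal RNA row held 60.1 and 55.3% of the unique reads in S. bayanus replicates 1 and 2, against 46.8 and 44.4% in S. mikatae replicates 1 and 2, although all libraries were depleted of ribosomal RNA.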

How the results depend on the processing

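Without the replicate block 282 genes were higher, against 429 with it, and with total counts 249 were lower, against 416. Leaving out 1 library gave 133 to 299 higher and 125 to 242 lower genes. In the other settings (DESeq2's size factors, the median ratio, 2 other filters, DESeq2, all 8 libraries, a length offset, 2 stricter gene sets and all aligned reads) both counts stayed within 1.5 times; DESeq2 gave 382 and 350, and the rebuilt chi-square 306 and 406, 43.0% of its calls being higher. Calls of the rebuilt chi-square needed an unadjusted p under 0.01, combined over the days, and 1 direction on both days. The other settings used an adjusted p under 0.05, so the counts stand at unlike thresholds. The rebuilt chi-square called 233 of the 429 higher and 295 of the 416 lower genes in the same direction. Of 237 single genes followed, 77 no longer passed with it. Called in the fits with and without the block, over 8 libraries and by DESeq2 were 501 genes, 248 higher and 253 lower. The standard deviation of the log2 ratios moved to 1.63 on day 1, 1.65 on day 2, 1.051 in S. bayanus and 1.01 in S. mikatae with no filter, to 1.44, 1.44, 0.85 and 0.83 with 0.5 added to every count, and to 1.52 and 1.49 between species over genes of all 4 species. No copper gene was tested over 8 libraries. Of the single genes, 1 changed direction: IZH1, a zinc gene at -1.96, ran from -3.66 without S. mikatae replicate 1 to 0.074 without S. mikatae replicate 2. Over all single-gene values in the alternatives, 546 no longer passed and 12 newly passed, against 3381 that did neither; of 237 genes 43 no longer passed without the block, 108 without S. bayanus replicate 1, 54 without its replicate 2, 86 without S. mikatae replicate 1 and 107 without its replicate 2. Depth limits genes with few reads, and S. bayanus replicate 1 is the shallowest library.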
